A study of Homo sapiens with 12 samples.

Results

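Hypoxia and glycolysis genes were followed across 3 head and neck cancer cell lines, each with cells selected for invasion and the parent cells. The list held 34 genes, of which 19 belong to glucose uptake, glycolysis or its regulation and 15 are other targets or regulators of the hypoxia response. A gene was measured where a probe set carried that gene as its only symbol, and of several such probe sets the brightest on average stood for the gene. By that rule 33 of the 34 genes were measured, out of 11963 genes with such a probe set. CA9, which encodes a carbonic anhydrase that regulates pH in hypoxic cells, had no such probe set and is not analysed here. EGLN3 was measured but too dim to be tested, which left 32 of the 8992 genes tested.

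When oxygen is scarce, the transcription factor subunit HIF1A escapes degradation, pairs with ARNT and binds short DNA elements with the core ACGTG or GCGTG. The genes it induces import glucose, speed its conversion to lactate, hold pyruvate back from the mitochondria, recruit blood vessels, remove mitochondria and modify collagen. Squamous carcinomas of the head and neck often contain hypoxic regions, and many of these genes are also active in cultured tumour cells with ample oxygen. No oxygen treatment was named in the labels, so the values describe the cultures as they were harvested.

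The groups were the Detroit invasion subline and Detroit parent, the OECM1 invasion subline and OECM1 parent, and the Fadu invasion subline and Fadu parent, with 2 arrays each. The sublines had been obtained by invasion through Matrigel, a basement membrane extract, and no group carried a transgene or a drug treatment in the labels. Fadu comes from a squamous carcinoma of the hypopharynx and OECM1 from one of the oral cavity, while the particular Detroit line, the number of clones in a subline and the separateness of duplicate cultures were not given in the sources used here. All p-values therefore measured the spread between these arrays, which may be technical. Total RNA was hybridised to Affymetrix arrays, and all levels below are log2 RMA values, a scale on which a difference of 1 is a 2-fold change. A gene is called changed where its Benjamini-Hochberg adjusted p over the 8992 genes, from a limma fit of the 6 groups, was under 0.05.

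Array medians lay between 4.92 and 5.06. The 18S ribosomal RNA control had a log2 value of 12.62 on Fadu invasion subline replicate 1, against 4.87 to 7.19 on the other arrays. Its part in the values below was not tested. Of 12 epithelial marker genes 9 were measured, and 8 or 9 of them lay above the detection filter on both arrays of every group, whereas at most 5 of 11 fibroblast, 2 of 7 endothelial and 3 of 8 leukocyte markers did. The arrays labelled Detroit invasion subline stood apart from their label. Over all 8992 genes their mean profile had a root mean square log2 difference of 0.77 from the Detroit parent and 0.45 from the Fadu parent, and KRT14, a basal keratin, had log2 values of 11.52 and 9.52 on them, against 4.11 and 4.0 on the Detroit parent arrays, with 9.08 and 8.66 on the Fadu parent arrays. The same arrays also differed from each other more than any other duplicates, with a root mean square log2 difference of 0.89 against 0.42 to 0.75 in the other 5 groups. The Detroit results below are therefore given by the library labels, and called ones also without single Detroit arrays.

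Hypoxia targets outside glycolysis varied between lines and between duplicates. With each gene set against its own mean over the 12 arrays, the median log2 deviation of the 13 tested targets was -0.99 and 0.35 on the arrays labelled Detroit invasion subline, against -0.16 and -0.29 on the Detroit parent arrays. It was 1.20 and 0.72 on the OECM1 invasion subline arrays, and 1.02 and 0.20 on the OECM1 parent arrays. The Fadu invasion subline arrays had -0.66 and -0.16, and the Fadu parent arrays -0.19 and -0.54. OECM1 arrays were thus high for these targets as a group, and the 2 arrays labelled Detroit invasion subline lay on either side of the mean.

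**Figure D1:**
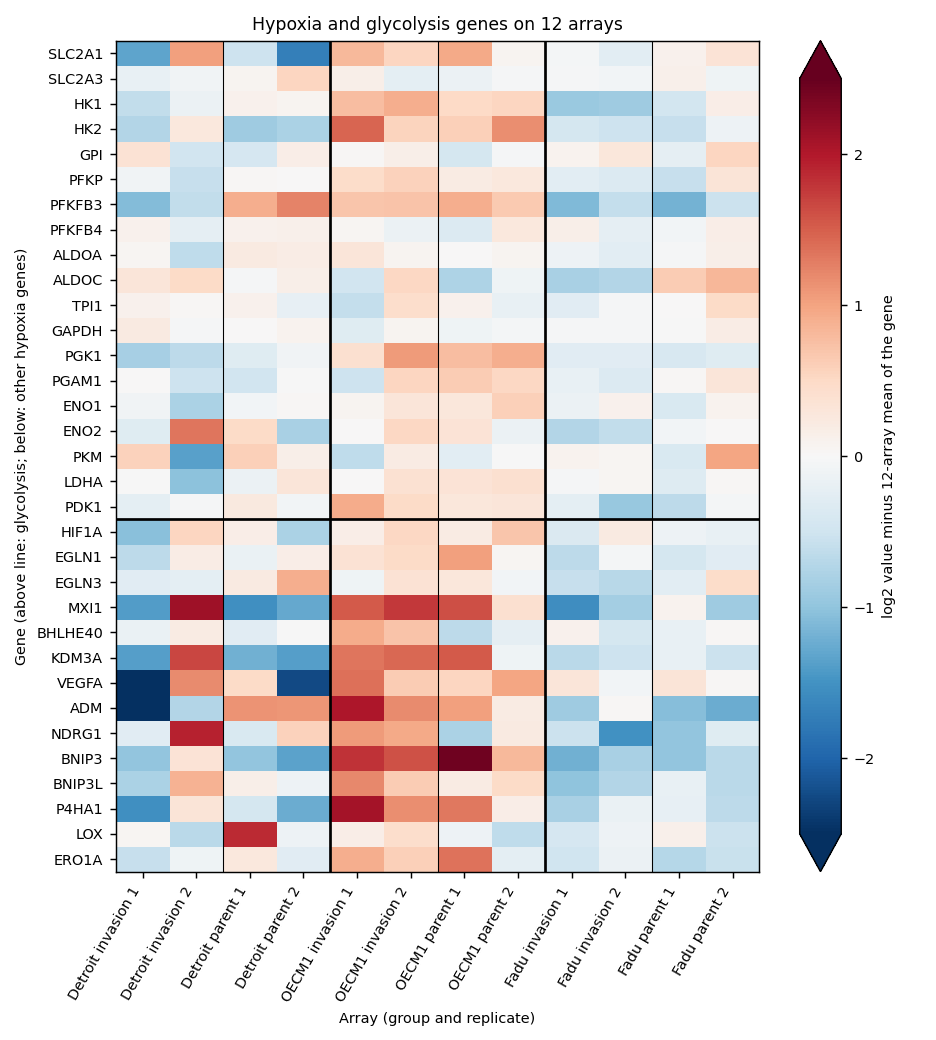
Each cell is the log2 value of a gene (rows) on an array (columns) minus the mean of that gene over the 12 arrays, with colours clipped at the ends of the bar. The OECM1 columns are red for BNIP3, MXI1, P4HA1, ADM and PFKFB3, and the Detroit invasion columns differ from each other for VEGFA (4.87 and 9.56), MXI1 (4.41 and 7.94) and KDM3A (4.14 and 7.18).

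In the comparison of the arrays labelled Detroit invasion subline with the Detroit parent, PFKFB3 and ADM fell and no member rose. These were 2 of 32 members, or 6.25%, beside a background of 3.28% of all genes called, 1.51% higher and 1.77% lower. At an unadjusted p under 0.05 there were 3 members and 16.1% of all genes. PFKFB3 makes the enzyme that produces fructose 2,6-bisphosphate, the main allosteric activator of phosphofructokinase, and so sets the pace of glycolysis. ADM encodes adrenomedullin, a secreted vasodilator peptide and a classical hypoxia target.

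PFKFB3 had log2 values of 4.84 and 5.32 on the arrays labelled Detroit invasion subline, against 6.84 and 7.17 on the Detroit parent arrays. The groups did not overlap. The log2 fold change was -1.92 (SE 0.31), a level 3.79-fold lower, with an adjusted p of 0.0081 in limma. The call held in 19 of 21 alternative fits, of which those without a Fadu or OECM1 array could not change the difference itself. It was lost in the limma fit of the 4 Detroit arrays alone (adjusted p = 0.094) and without Detroit parent replicate 2 (3.38-fold lower).

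For ADM the log2 values were 5.62 and 7.67 on the arrays labelled Detroit invasion subline, against 9.52 and 9.50 on the Detroit parent arrays. The parent duplicates were nearly equal, while the subline duplicates stood 2.05 log2 units apart and both lay below the parent. The log2 fold change was -2.87 (SE 0.61), a level 7.29-fold lower, with an adjusted p of 0.028 in limma. Without subline replicate 1 the level was 3.58-fold lower and without subline replicate 2 it was 14.8-fold lower, both called. The call was lost with the replicate number as a block (adjusted p = 0.052), in the 4 Detroit arrays alone (0.203) and without Detroit parent replicate 1 (0.146) or 2 (0.115).

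The promoters of 5 members are shown: PFKFB3 and ADM, the members called in this comparison, and BNIP3, PGK1 and HK1, which with PFKFB3 were called between the OECM1 and Fadu arrays in every alternative fit, as described further on. Each is the stretch of 250 bases before the RefSeq transcription start on GRCh38.p14, given 5′ to 3′ on the strand of the gene, for PFKFB3 at chr10:6144671-6144920 (plus strand), for ADM at chr11:10304823-10305072 (plus strand), for BNIP3 at chr10:131981924-131982173 (minus strand), for PGK1 at chrX:78103998-78104247 (plus strand) and for HK1 at chr10:69269750-69269999 (plus strand). Capitals mark the cores ACGTG and GCGTG or their reverse complements CACGT and CACGC. PFKFB3 and ADM each held 1 match, PGK1 held 3, BNIP3 held 6, the most of any member, and HK1 held 0. A CACGTG counts as 2 overlapping matches, 1 on each strand, and BNIP3 held 1 such site. Among the other members called between lines, PDK1 and MXI1 also held 0. Only 1 start per gene was scanned, so a count of 0 does not cover other starts of the gene that these cells may use.
PFKFB3: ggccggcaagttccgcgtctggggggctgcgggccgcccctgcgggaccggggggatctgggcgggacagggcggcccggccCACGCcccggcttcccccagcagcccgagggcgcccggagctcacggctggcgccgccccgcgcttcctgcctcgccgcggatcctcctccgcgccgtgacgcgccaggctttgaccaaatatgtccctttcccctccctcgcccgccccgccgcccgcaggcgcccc
ADM: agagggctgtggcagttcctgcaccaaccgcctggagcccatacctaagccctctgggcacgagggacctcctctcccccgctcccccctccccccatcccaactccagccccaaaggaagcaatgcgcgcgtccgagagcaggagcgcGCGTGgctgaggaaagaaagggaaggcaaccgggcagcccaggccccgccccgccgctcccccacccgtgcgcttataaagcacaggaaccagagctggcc
BNIP3: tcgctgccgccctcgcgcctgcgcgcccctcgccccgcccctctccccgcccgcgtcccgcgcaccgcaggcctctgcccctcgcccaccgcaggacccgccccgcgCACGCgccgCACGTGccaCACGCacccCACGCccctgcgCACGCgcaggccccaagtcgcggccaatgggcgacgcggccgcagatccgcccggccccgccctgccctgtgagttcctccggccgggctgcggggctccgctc
PGK1: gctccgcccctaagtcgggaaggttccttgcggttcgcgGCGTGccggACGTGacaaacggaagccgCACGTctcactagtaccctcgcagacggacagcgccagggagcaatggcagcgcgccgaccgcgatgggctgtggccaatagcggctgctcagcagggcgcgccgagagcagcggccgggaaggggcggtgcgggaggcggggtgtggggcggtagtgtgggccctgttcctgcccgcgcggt
HK1: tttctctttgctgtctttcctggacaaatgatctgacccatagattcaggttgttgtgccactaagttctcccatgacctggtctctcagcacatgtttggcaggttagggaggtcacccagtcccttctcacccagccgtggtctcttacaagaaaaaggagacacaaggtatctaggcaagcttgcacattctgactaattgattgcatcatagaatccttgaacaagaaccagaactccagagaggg

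Among the 30 members with a promoter window in the RefSeq table, 21 held at least 1 core and 9 held none, or 70.0% with a core, against 56.4% of the windows of the genes tested and 43.1% of all windows. ACGTG, which overlaps the E-box CACGTG, occurred on either strand in 15 of the 30 windows, against 23.0% of the windows of the genes tested and 18.7% of all windows. GCGTG occurred in 36.7% of member windows and 44.7% of those of the genes tested. Many members are known HIF targets, so the shares describe the choice of genes, and a match shows nothing of binding in these cells. SLC2A3, VEGFA, NDRG1 and BNIP3L had no window in the table.

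None of the other 30 members was called in the Detroit comparison. Of the glycolysis members whose groups did not overlap, 8 including PFKFB3 had the lower values on the subline arrays and 2 the higher. PGK1, which makes the first ATP of glycolysis, had log2 values of 9.34 and 9.53 on the arrays labelled Detroit invasion subline, against 9.88 and 10.10 on the Detroit parent arrays (log2 fold change -0.56, SE 0.29, adjusted p = 0.391). ALDOA, the main aldolase, had log2 values of 11.28 and 10.60, against 11.46 and 11.43 in the parent (log2 fold change -0.50). HK1, the constitutive hexokinase, had log2 values of 8.27 and 8.73, against 8.99 and 8.95 in the parent (log2 fold change -0.47). Without single Detroit arrays the log2 fold change lay between -0.67 and -0.44 for PGK1, between -0.84 and -0.16 for ALDOA and between -0.70 and -0.24 for HK1, and none was called. In all, 9 of 32 members lay below the parent on both subline arrays and 2 lay above it, against 18.8% and 19.9% of all genes.

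The 2 members above the parent on both arrays were HK2, the hypoxia-inducible hexokinase, and ALDOC, an aldolase of brain and hypoxic cells. HK2 had log2 values of 6.11 and 7.10 on the arrays labelled Detroit invasion subline, against 5.96 and 6.05 on the Detroit parent arrays (log2 fold change 0.60, adjusted p = 0.566), and without single Detroit arrays the log2 fold change lay between 0.11 and 1.10, not called. The median log2 fold change was -0.23 over the 19 glycolysis members and 0.06 over the 13 other hypoxia members, against -0.01 over all genes tested. In bulk RNA of a culture, fewer cells with a transcript and less of it per cell cannot be told apart.

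**Figure D2:**
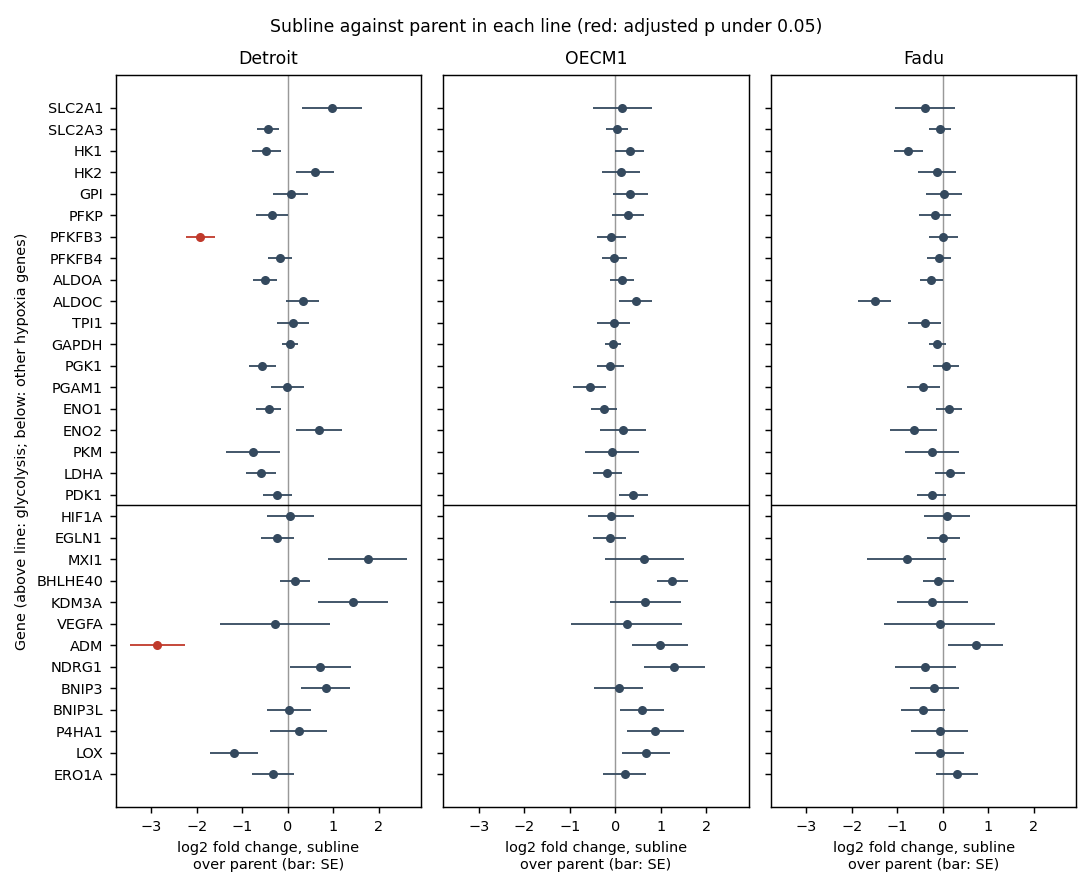
Points are log2 fold changes of the invasion subline over the parent for the 32 tested genes in each line and bars are standard errors from limma, with adjusted p under 0.05 in red. PFKFB3 (-1.92) and ADM (-2.87) in the Detroit panel are the 2 called genes, and no gene is called in the OECM1 or Fadu panel.

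Duplicates of the hypoxia targets disagreed most on the arrays labelled Detroit invasion subline. Replicate 2 exceeded replicate 1 for 12 of the 13 tested hypoxia targets outside glycolysis, by over 1 log2 unit for 9 of them, with a median difference of 1.67. The median over all genes was -0.09, and over the 19 glycolysis members it was -0.08. These differences between 2 arrays of 1 group have no replicates and were not tested.

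VEGFA, the angiogenic growth factor, had log2 values of 4.87 on replicate 1 and 9.56 on replicate 2 of the arrays labelled Detroit invasion subline, against 8.87 and 6.13 on the Detroit parent arrays. Its 3 other probe sets also gave higher values on replicate 2, by 1.32, 2.08 and 2.11 log2 units. MXI1, a MYC antagonist, had 4.41 and 7.94, against 4.28 and 4.54 in the parent. KDM3A, a histone H3 lysine 9 demethylase, had 4.14 and 7.18, against 4.31 and 4.14 in the parent, where it lay below the detection filter.

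SLC2A1, the main glucose transporter of tumour cells, had log2 values of 6.20 and 8.54 on the arrays labelled Detroit invasion subline, against 6.99 and 5.81 on the Detroit parent arrays. NDRG1, a stress-responsive growth suppressor, had 7.19 and 9.39, against 7.09 and 8.05 in the parent. HIF1A itself had 8.19 and 9.77, against 9.39 and 8.45 in the parent. For each of these 3 genes replicate 2 lay above both parent arrays, as it did for 10 of 13 hypoxia targets outside glycolysis, whereas replicate 1 did for 0 of 13. Among all genes these shares were 36.1% for replicate 2 and 39.6% for replicate 1.

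Several glycolytic enzymes went the other way between the same 2 arrays. PKM, the pyruvate kinase of the last step, had a log2 value of 11.09 on replicate 1 and 9.16 on replicate 2, and LDHA, which turns pyruvate into lactate, had 11.55 and 10.52. Replicate 2 held the lowest of the 12 values for 7 of 19 glycolysis members, namely GPI, PFKP, ALDOA, PGAM1, ENO1, PKM and LDHA, against 13% of all genes. The second probe set of PKM differed by only -0.23 between the 2 arrays. SLC2A1 and ENO2, a neuronal enolase that responds to hypoxia, had their highest value of the 12 on replicate 2.

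Other measures moved with this split. From replicate 1 to replicate 2 all 18 tested genes of an ATF4 and unfolded protein response list were higher, with a median log2 difference of 2.55, and all 20 genes of a G2 and mitosis list were lower, with a median of -3.31. The ACTB 3′ to 5′ control difference, a measure of RNA integrity, was -0.28 on replicate 1 and 0.80 on replicate 2. Their part in the hypoxia gene difference was not tested.

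Leaving out 1 of these arrays changed which members were called. The number of all genes called also moved when single arrays were left out, as given further on. Changes in the members called are therefore not read as a result about the members. Without subline replicate 1, a lone subline array was set against the Detroit parent. MXI1 was 11.5-fold and SLC2A1 4.41-fold higher than in the Detroit parent, where 1 of 2 arrays of MXI1 was above the detection filter. KDM3A, below the filter on both parent arrays, was at least 6.32-fold higher, with the dim arrays set to the filter level (limma adjusted p = 0.0064), whereas LDHA was 2.15-fold, PFKFB3 3.21-fold and ADM 3.58-fold lower. Without subline replicate 2, PFKFB3 was 4.48-fold and ADM 14.8-fold lower. PFKFB3 and ADM were the members called whichever of the 2 subline arrays was left out. Detroit parent replicate 1 held the highest value of LOX, a collagen cross-linking oxidase, whose log2 values were 4.47 and 3.76 on the arrays labelled Detroit invasion subline, against 6.29 and 4.30 on the parent arrays. Without parent replicate 2, LOX was the only member called, at least 3.43-fold lower by the same bound (limma adjusted p = 0.026), since both subline arrays were below the filter.

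**Figure D3:**
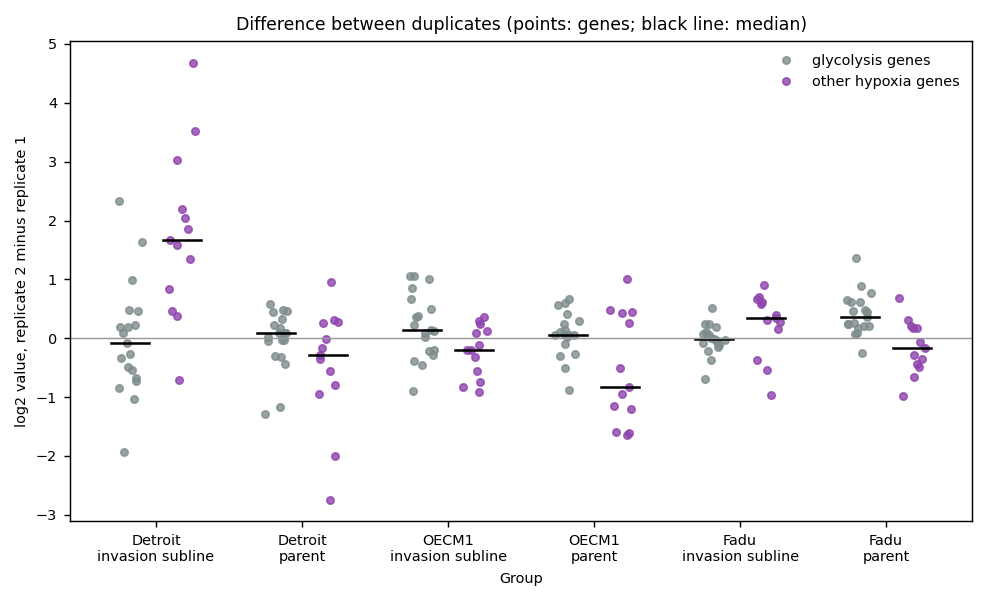
Each point is the log2 value of a tested gene on replicate 2 minus that on replicate 1 of a group, with glycolysis genes in grey, other hypoxia genes in purple and the median as a black line. Purple points of the Detroit invasion subline reach 4.68 (VEGFA) with a median of 1.67, while those of the OECM1 parent have a median of -0.83.

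Set against the Fadu parent, the arrays labelled Detroit invasion subline had 0 of 32 members called by limma and 0 at an unadjusted p under 0.05, beside a background of 0% called and 3.9% at the unadjusted threshold. Over the 32 members the root mean square log2 difference of the mean of both arrays was 0.49 from the Fadu parent and 0.87 from the Detroit parent. The single arrays lay farther off. Replicate 1 had 0.87 from the Fadu parent and 1.00 from the Detroit parent, and replicate 2 had 1.00 from the Fadu parent and 1.34 from the Detroit parent, with smaller differences of 0.90 from the OECM1 invasion subline and 0.92 from the OECM1 parent. By the mean of both arrays 24 of 32 members lay nearer to the Fadu parent than to the Detroit parent, as did 5502 of all 8992 genes. PFKFB3 averaged 5.08 on the arrays labelled Detroit invasion subline and 5.08 on the Fadu parent arrays (SD 0.34 and 0.45, n = 2 each). NDRG1 was the only member above the Fadu parent on both arrays, with 7.19 and 9.39 against 6.48 and 7.17 in the Fadu parent (log2 fold change 1.46, SE 0.67), and PGK1, PGAM1 and ALDOC lay below it on both. Among all genes 14.1% lay above and 14% below without overlap. Without Detroit invasion subline replicate 1, MXI1 and NDRG1 were called higher, 5.75-fold and 5.90-fold.

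In OECM1, 0 of 32 members were called by limma and 1 had an unadjusted p under 0.05, beside 0% of all genes called and 3.34% at the unadjusted threshold. That member was BHLHE40, a transcriptional repressor of the circadian and hypoxia responses. Its log2 values were 8.99 and 8.78 on the OECM1 invasion subline arrays, against 7.42 and 7.85 on the OECM1 parent arrays, without overlap. The log2 fold change was 1.25 (SE 0.34, unadjusted p = 0.0035, adjusted p = 0.700), and its second probe set gave a difference of 1.05.

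Other hypoxia targets of OECM1 lay above the parent on both subline arrays. NDRG1 had log2 values of 8.53 and 8.42 on the OECM1 invasion subline arrays, against 6.68 and 7.68 on the OECM1 parent arrays (log2 fold change 1.30, SE 0.67). ADM had 10.41 and 9.58, against 9.42 and 8.59 in the parent (log2 fold change 0.99, SE 0.61). BNIP3L, a receptor for mitophagy, had 8.24 and 7.68, against 7.24 and 7.51 in the parent (log2 fold change 0.58). PDK1, the kinase that shuts pyruvate dehydrogenase, had 6.56 and 6.11, against 5.92 and 5.94 in the parent (log2 fold change 0.40).

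Over the 13 hypoxia targets outside glycolysis, 11 had a positive log2 fold change in OECM1, with a median of 0.64, whereas the 19 glycolysis members had a median of 0.04 and all genes tested a median of 0.01. In all, 10 of 32 members lay above the parent on both arrays and 0 below it, against 13.5% and 11.6% of all genes. The ATF4 and unfolded protein response list had 18 of 18 log2 fold changes positive and a median of 0.66, though 0 were called by limma and 0 had an unadjusted p under 0.05. Its part in the hypoxia target values was not tested. The OECM1 parent duplicates disagreed for the same targets. From replicate 1 to replicate 2, KDM3A differed by -1.65, BNIP3 by -1.61, ERO1A by -1.60, MXI1 by -1.19 and NDRG1 by 1.00 on the log2 scale, with a median of -0.83 over the 13 genes. The ACTB control difference was 0.87 on OECM1 parent replicate 1 and 0.04 on replicate 2, and its part was not tested.

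In Fadu, 0 of 32 members were called by limma and 2 had an unadjusted p under 0.05, beside 0.0222% of all genes called and 2.02% at the unadjusted threshold. ALDOC had log2 values of 5.55 and 5.63 on the Fadu invasion subline arrays, against 6.98 and 7.19 on the Fadu parent arrays. The duplicates agreed closely and the groups did not overlap, with a log2 fold change of -1.50 (SE 0.36, unadjusted p = 0.0016, adjusted p = 0.982). HK1 had 7.95 and 8.0, against 8.42 and 9.05 in the Fadu parent (log2 fold change -0.76, SE 0.32).

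ENO2 had log2 values of 4.06 and 4.17 on the Fadu invasion subline arrays, both below the detection filter, against 4.72 and 4.79 on the Fadu parent arrays. ADM had 7.51 and 8.42, against 7.32 and 7.16 in the Fadu parent (log2 fold change 0.72, SE 0.61). PGAM1, the phosphoglycerate mutase, and TPI1, the triosephosphate isomerase, had log2 fold changes of -0.43 and -0.40. The medians were -0.17 over the glycolysis members and -0.07 over the other hypoxia members, against -0.02 over all genes. Between the Fadu parent duplicates, replicate 2 exceeded replicate 1 for 18 of 19 glycolysis members, with a median of 0.36, a larger shift than -0.17. The ACTB control difference was 0.55 on Fadu parent replicate 1 and -0.23 on replicate 2, and its part was not tested. In all, 9 of 32 members lay below the parent on both arrays and 3 above it, against 18% and 15.7% of all genes.

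The difference between the 3 lines in the invasion effect was itself tested with a limma F test. No member passed it, and 4 had an unadjusted p under 0.05, beside 0.701% of all genes called and 8.67% at the unadjusted threshold. The smallest adjusted p-values were 0.121 for ADM, 0.134 for PFKFB3 and 0.219 for ALDOC. The fall of PFKFB3 and ADM on the arrays labelled Detroit invasion subline was therefore not shown to differ from the effects in OECM1 (log2 fold changes -0.09 and 0.99) and Fadu (0.01 and 0.72). ADM was called by this test without Detroit invasion subline replicate 2 and with the ACTB control difference as a covariate, and MXI1 without replicate 1.

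The 3 parents differed for PFKFB3 (F test, adjusted p = 0.0082) and BNIP3 (adjusted p = 0.019), 2 of 32 members, beside a background of 5.29% of all genes called. PFKFB3 was high in both the Detroit parent (7.01 ± 0.23) and the OECM1 parent (6.72 ± 0.19), and low in the Fadu parent (5.08 ± 0.45, SD, n = 2 each). It was 3.81-fold higher in the Detroit parent than in the Fadu parent (adjusted p = 0.0092) and 3.12-fold higher in the OECM1 parent than in the Fadu parent (adjusted p = 0.018). The Detroit call was lost without Detroit parent replicate 2 or Fadu parent replicate 1 (adjusted p up to 0.125). The OECM1 call was lost with the replicate block and without OECM1 parent replicate 1 or Fadu parent replicate 1 (adjusted p up to 0.210). These comparisons share the Fadu parent arrays, and the first also shares the Detroit parent arrays with the subline comparison.

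BNIP3, which marks mitochondria for mitophagy under hypoxia, had log2 values of 9.56 and 7.95 on the OECM1 parent arrays, against 6.14 and 6.45 on the Fadu parent arrays, while the Detroit parent had 6.15 and 5.80. The OECM1 parent was above both other parents on both of its arrays, though its duplicates lay 1.61 log2 units apart. BNIP3 was 6.88-fold lower in the Detroit parent than in the OECM1 parent (adjusted p = 0.018) and 5.50-fold higher in the OECM1 parent than in the Fadu parent (adjusted p = 0.036). The last call was lost in 11 of 21 alternative fits (adjusted p up to 0.242), with 3.15-fold without OECM1 parent replicate 1. The Detroit difference was lost without either Detroit parent array or without OECM1 parent replicate 1 (adjusted p up to 0.115), with 3.94-fold without the last. In pairs of parents, 1 member was called between the Detroit parent and the Fadu parent, higher in Detroit, beside 2.58% of all genes called, 1.29% higher and 1.29% lower. There, 7 members lay above and 6 below without overlap, against 26.6% and 24.8% of all genes. Between the OECM1 parent and the Fadu parent 2 members were called, both higher in OECM1, beside 2.94% of all genes called, 1.43% higher and 1.5% lower. In that pair 18 of 32 members lay above and 3 below without overlap, against 20.4% and 21.1% of all genes. Between the Detroit parent and the OECM1 parent 1 member was called, lower in Detroit, beside 3.4% of all genes called, 1.53% higher and 1.87% lower, with 9 members and 16.3% of all genes at an unadjusted p under 0.05. Here 6 members lay above and 16 below without overlap, against 21.1% and 22.1% of all genes. These comparisons share arrays with one another.

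Without the 2 arrays labelled Detroit invasion subline, whose spread enters the shared error, more of all genes were called, as given further on. Of the members, 7 differed between the parents in that fit, namely PFKFB3, BNIP3, ADM, HK2, PGK1, MXI1 and KDM3A. Without Fadu parent replicate 1 there were 0. Neither count is set beside a share of all genes, so neither is read as a result about the members.

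Because the OECM1 arrays stood out, a comparison of all 4 OECM1 arrays with all 4 Fadu arrays was added after the values had been seen. It averages subline and parent within each line and uses no Detroit array in the difference. It compares 1 culture pair of each line, since subline and parent share an origin and duplicates are not independent lines. In this comparison 11 of 32 members were higher in OECM1, or 34.4%, and 0 were lower, beside a background of 14.7% of all genes called, 7.85% higher and 6.88% lower. At an unadjusted p under 0.05 there were 15 members and 28% of all genes. The called members were 5 of the 19 glycolysis members and 6 of the 13 other hypoxia members.

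The 5 glycolysis members act at the entry, the pacing step, the first ATP-yielding step and the exit to the mitochondria. PFKFB3 had log2 values of 6.62, 6.64, 6.85 and 6.58 on the OECM1 arrays, against 4.83, 5.34, 4.76 and 5.40 on the Fadu arrays (subline arrays given before parent arrays here and below), 3.01-fold higher in OECM1 (adjusted p = 0.0011). PGK1 had log2 values of 10.58, 11.25, 10.95 and 11.09 on the OECM1 arrays, against 9.89, 9.89, 9.77 and 9.87 on the Fadu arrays, 2.16-fold higher (adjusted p = 0.0050). A further pair of PGK1 probe sets gave differences of 1.59 and 1.42, beside 1.11 for the one used, and another, below the detection filter on every array, gave 0.05. Neither gene overlapped between the lines.

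Both hexokinases, which trap glucose in the cell, were higher in OECM1. HK1 had log2 values of 9.65, 9.79, 9.38 and 9.43 on the OECM1 arrays, against 7.95, 8.0, 8.42 and 9.05 on the Fadu arrays, 2.31-fold higher (adjusted p = 0.0058). HK2 had 8.30, 7.40, 7.44 and 8.0, against 6.40, 6.33, 6.27 and 6.72 in Fadu, 2.56-fold higher (adjusted p = 0.012), although its dim second probe set gave a difference of -0.26. PDK1 had 6.56, 6.11, 5.92 and 5.94, against 5.39, 4.70, 4.98 and 5.60 in Fadu, 1.95-fold higher (adjusted p = 0.016).

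Among the hypoxia targets outside glycolysis, BNIP3 showed the largest difference of the members. Its log2 values were 8.93, 8.73, 9.56 and 7.95 on the OECM1 arrays, against 5.92, 6.31, 6.14 and 6.45 on the Fadu arrays, 6.01-fold higher (adjusted p = 0.0014). The second BNIP3 probe set gave a difference of 2.53, beside 2.59 for the one used. BNIP3L, its relative in mitophagy, had 8.24, 7.68, 7.24 and 7.51 in OECM1, against 6.03, 6.31, 6.85 and 6.36 in Fadu, 2.43-fold higher (adjusted p = 0.029). ADM had 10.41, 9.58, 9.42 and 8.59 in OECM1, against 7.51, 8.42, 7.32 and 7.16 in Fadu, 3.73-fold higher (adjusted p = 0.015).

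P4HA1, a prolyl hydroxylase of collagen, MXI1 and ERO1A, which forms disulfide bonds in the endoplasmic reticulum, completed the called members. P4HA1 had log2 values of 9.83, 8.92, 9.07 and 7.92 on the OECM1 arrays, against 6.93, 7.59, 7.55 and 7.10 on the Fadu arrays, 3.12-fold higher (adjusted p = 0.031). MXI1 had 7.34, 7.58, 7.42 and 6.22 in OECM1, against 4.26, 4.97, 5.90 and 4.93 in Fadu, 4.36-fold higher (adjusted p = 0.041). OECM1 lay above Fadu for both without overlap. ERO1A was 2.19-fold higher (adjusted p = 0.041) but overlapped, with OECM1 values from 6.39 to 7.99 and Fadu values from 5.92 to 6.49. EGLN1, the main oxygen-sensing prolyl hydroxylase, missed the threshold (log2 fold change 0.84, adjusted p = 0.052) and lay below the detection filter on all 4 Fadu arrays.

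**Figure D4:**
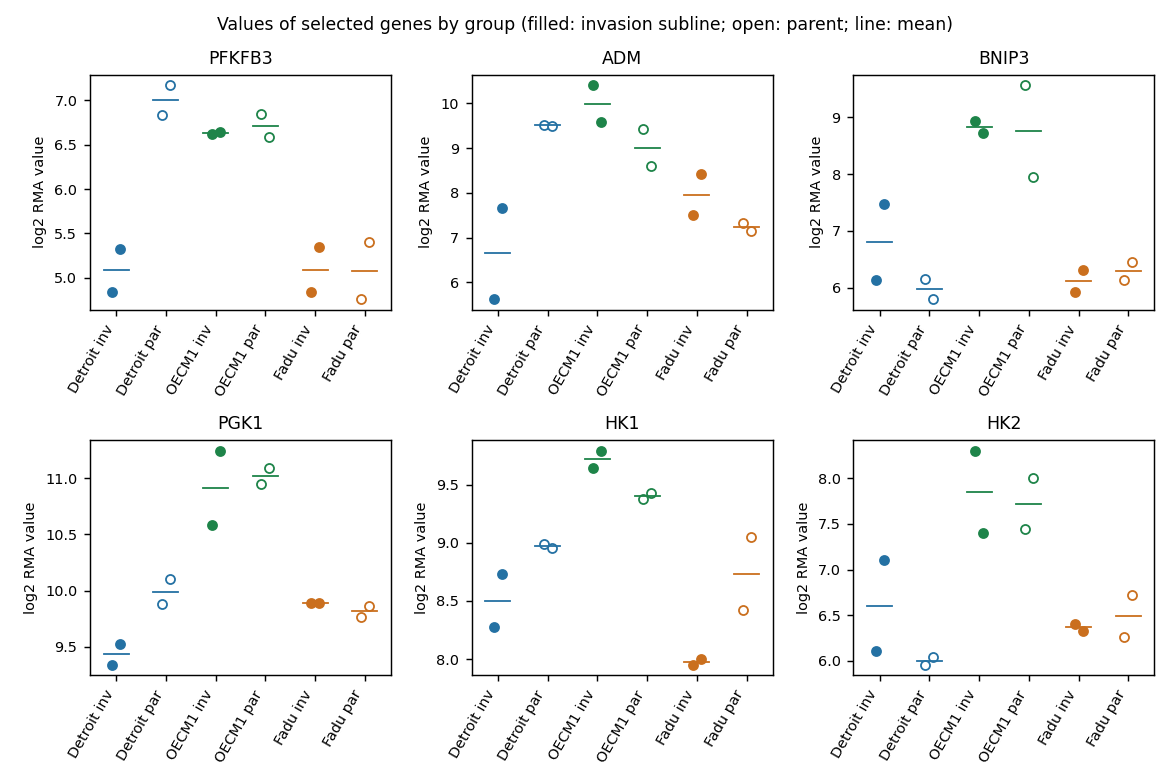
Points are log2 values on single arrays and lines are group means for 6 genes, with sublines filled and parents open. For all 6 genes (PFKFB3, ADM, BNIP3, PGK1, HK1 and HK2) every OECM1 point lies above every Fadu point. For PFKFB3 the Detroit parent (6.84 and 7.17) lies with OECM1 while the arrays labelled Detroit invasion subline (4.84 and 5.32) lie with Fadu.

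Of the 21 alternative fits of this comparison, those that left out only Detroit arrays could not change the difference itself. PFKFB3, BNIP3, PGK1 and HK1 were called in all 21. The others depended on single arrays, and leaving out 1 array gave 4 to 14 called members, with the fewest without OECM1 invasion subline replicate 1. ADM was lost without that array, OECM1 parent replicate 1 or Fadu invasion subline replicate 1 (adjusted p up to 0.0676). HK2 was lost without that array, without Fadu parent replicate 1, and with the mean of its probe sets (up to 0.0651), which gave 1.46-fold. PDK1 was called in 17, P4HA1 in 14, BNIP3L in 12, and MXI1 and ERO1A in 10 of the 21 alternatives. MXI1 was lost without any single array of OECM1, Fadu or the Detroit parent. Without the 2 arrays labelled Detroit invasion subline 14 members were called, the further ones being EGLN1, KDM3A and NDRG1. In that fit EGLN1 passed the detection filter through OECM1 arrays only, so its call carries no weight. The share of all genes called in that fit is not given here, so the 14 are not read as a result about the members.

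The remaining members were not called higher or lower in OECM1. All 13 hypoxia targets outside glycolysis had a positive log2 difference, from 0.20 to 2.59, with a median of 1.19, against -0.02 over all genes. They include EGLN1, which passed the detection filter mainly through OECM1 arrays and lay below it on every Fadu array. HIF1A, whose protein is controlled mainly by its stability, was also among the 13. Its log2 values ran from 9.40 to 9.92 on the OECM1 arrays and from 8.88 to 9.46 on the Fadu arrays. Beside these targets, 15 of 18 genes of the ATF4 and unfolded protein response list had a positive difference, with a median of 1.03. Of the 18 genes, 2 were called higher and 1 lower, beside 7.85% and 6.88% of all genes. The part of this list was not tested. Over the 19 glycolysis members the median was 0.35, and 7 had a negative difference, down to -0.36 for PKM, whose second probe set gave 1.35. In all, 13 of 32 members lay higher on all 4 OECM1 arrays and 0 lower, against 12% and 12.2% of all genes.

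Several glycolysis members spanned a narrow range over the 12 arrays. GAPDH, often used as a reference transcript, ranged from a log2 value of 12.60 to 13.13. ALDOA, GPI, the glucose 6-phosphate isomerase, and TPI1 spanned 0.93, 1.03 and 1.09 log2 units. PFKFB4, a relative of PFKFB3, and SLC2A3, a high-affinity glucose transporter, had log2 values from 4.76 to 5.36 and from 4.88 to 5.65. EGLN3, the prolyl hydroxylase most strongly induced by hypoxia, passed the detection filter on 1 array only, with log2 values from 3.10 to 4.70. LOX and EGLN1 passed it on 4 arrays each, so their differences can be compressed at the low end.

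Further genes of the pathway were drawn from lists chosen with earlier results of these data known. Of 25 tested further hypoxia targets, 10 were higher in OECM1 than in Fadu and 0 were lower, or 40%, beside 7.85% of all genes called higher. They included ZNF395 (4.80-fold, adjusted p = 0.0019), a transcription factor, PLOD1 (3.14-fold, 0.0046), a collagen lysyl hydroxylase, MET (3.25-fold, 0.0051), the hepatocyte growth factor receptor, and HILPDA (2.27-fold, 0.0082), a lipid droplet protein. Of 20 further glycolysis and lactate genes, 0 were called by limma, and 3 had an unadjusted p under 0.05. Of 10 regulators of the HIF pathway, 0 were called and 4 had an unadjusted p under 0.05.

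Of the 25 further hypoxia targets 1 was called in Detroit, a share near the background of 3.28%. It was MET, with log2 values averaging 8.56 ± 0.53 on the arrays labelled Detroit invasion subline and 10.60 ± 0.85 on the Detroit parent arrays (SD, n = 2 each), 4.10-fold lower (limma adjusted p = 0.031). Without single Detroit arrays the level was 2.70-fold to 6.22-fold lower, and the call was lost without subline replicate 1 (adjusted p = 0.059) or parent replicate 1 (0.208). It was also lost without any single Fadu array (adjusted p up to 0.0523). No gene of these 3 lists was called by limma in OECM1 or Fadu, beside 0% and 0.0222% of all genes, and 2 and 0 of the further hypoxia targets had an unadjusted p under 0.05, and 0 of the other 2 lists did.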

How the data were processed

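Total RNA of invasion sublines and parents of 3 head and neck cancer lines was hybridised to 12 Affymetrix arrays, 2 per group. The deposited values are log2 expression per probe set, made by the authors with RMA in Partek 7 per the submitters' processing notes; the genome build and probe annotation version are not given in the sources used here, and RMA compresses differences of dim genes. Groups came from the labels. Of 22283 probe sets, 68 were controls, 19065 had 1 gene symbol, 1043 several and 2107 none. One probe set per gene, that with the highest mean, was kept, and a gene was tested where at least 2 arrays exceeded a log2 value of 4.52, the 40th percentile. Array number limits the precision.

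The 6 groups were fitted in limma 3.58.1 (R 4.3.3) with an intensity trend, Benjamini-Hochberg adjustment over 8992 genes and a threshold of 0.05, and tested on simulated data. Subline and parent arrays of the same replicate number deviated in opposite directions (correlations of deviations -0.19 in Detroit, -0.40 in OECM1 and -0.38 in Fadu). A block with the numbers crossed within each line was therefore fitted beside the plain replicate block. Whether arrays of unlike number belong together was not tested. Named genes were the called members, up to 6 uncalled members per comparison whose groups did not overlap, other members by range or role, and up to 4 called genes of each further list in order of p. The members and lists were chosen with earlier results of these data known. The comparison of OECM1 with Fadu arrays, the crossed block and the fit without the arrays labelled Detroit invasion subline were added after the values were seen. Promoter sequences and names are RefSeq's.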

Additional observations from a re-analysis of the deposited data

Results flagged for a closer look

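By the labels, the subline minus parent difference of KRT14, a basal keratin, was unequal in the 3 lines by the limma F test (adjusted p = 0.00467). This rests on the arrays labelled Detroit invasion subline, which stood apart from their label. For KRT14 they lay above the Fadu parent without overlap. No gene of the 8992 tested was called in that comparison, so the lack of a call shows no likeness. Its log2 values were 11.52 and 9.52 on the arrays labelled Detroit invasion subline, against 4.11 and 4.0 on the Detroit parent arrays. They were 4.01 and 3.90 on the OECM1 invasion subline arrays, against 3.90 and 4.94 on the OECM1 parent arrays, and 9.48 and 8.20 on the Fadu invasion subline arrays, against 9.08 and 8.66 on the Fadu parent arrays. KRT14 is no member of the hypoxia or glycolysis genes, and its part in their differences was not tested.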

How the results depend on the processing

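The number of members called in the Detroit comparison was 2, and it became 1 with the replicate number as a block, 0 in the 4 Detroit arrays alone and 1 to 6 when single arrays were left out, with 6 without Detroit invasion subline replicate 1. Against the Fadu parent, the Detroit-labelled subline had 0 members called and 0 to 2 with single arrays left out. For the difference between lines in the invasion effect the count was 0, with 1 under the ACTB covariate and 0 to 1 with single arrays left out. For the difference between parents it was 2, with 1 under the replicate block, 7 without the arrays labelled Detroit invasion subline, and 0 to 7 with single arrays left out. Fadu and OECM1 had 0 members called by limma under every alternative run. For OECM1 against Fadu arrays the count was 11, with 7 under the replicate block, 14 without the arrays labelled Detroit invasion subline and 4 to 14 with single arrays left out. No called member changed sign under the alternatives run.

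Counts over all genes moved more. In the Detroit comparison 295 genes were called, with 170 under array weights, 118 under the replicate block, 501 under the crossed block, 455 under the ACTB covariate, 50 in the 4 arrays alone and 109 to 918 with single arrays left out. In Fadu 2 were called, with 5, 0 and 1 under array weights, the replicate block and the 4 arrays alone, and 0 to 3 with single arrays left out. In OECM1 0 were called, and 0 to 6 with single arrays left out. The Detroit-labelled subline against the Fadu parent gave 0, with 1 under the stricter filter and 0 to 246 with single arrays left out. OECM1 against Fadu arrays gave 1325, with 702 under the replicate block and 669 to 1718 with single arrays left out. The difference between lines gave 63, with 29 under the block and 26 to 252 with single arrays left out. The difference between parents gave 476, with 201 under the block, 748 under the crossed block, 734 without the arrays labelled Detroit invasion subline and 209 to 731 with single arrays left out. The cause of these shifts was not tested.

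With 2 arrays a group, an array left out leaves a lone sample whose spread is assumed to be that of the other groups. No oxygen measurement, protein or metabolite was part of these data, and genes near the detection filter (EGLN1, EGLN3, LOX, ENO2 and KDM3A) have compressed differences.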

Other observations

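Part of the mitochondrial genes differed between OECM1 and Fadu. Of 24 tested oxidative phosphorylation genes, 7 were lower on the OECM1 arrays than on the Fadu arrays and 0 were higher, beside 6.88% of all genes called lower and 7.85% called higher. They included the complex I subunits NDUFA2 (3.64-fold lower, adjusted p = 0.0052), NDUFS3 (2.61-fold, 0.011), NDUFA1 (2.19-fold, 0.017) and NDUFA9 (2.36-fold, 0.020). Of 19 tested tricarboxylic acid cycle and pyruvate dehydrogenase genes, SDHD, OGDH and DLD were lower, while PDHA1, the pyruvate dehydrogenase subunit that PDK1 phosphorylates, was 3.58-fold higher (adjusted p = 0.0021). Of 8 pentose phosphate genes 0 were called by limma, with 2 at an unadjusted p under 0.05. This comparison was added after the values were seen, and the lists were chosen with earlier results known.

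CRELD2, an endoplasmic reticulum stress gene, was 6.95-fold higher on the arrays labelled Detroit invasion subline than on the Detroit parent arrays (adjusted p = 0.0052). It was 11.2-fold higher without subline replicate 1 and 4.32-fold higher without subline replicate 2. Its log2 values of 9.99 and 11.36 on these arrays lay above the 9.89 and 9.95 of the Fadu parent. That difference was not called, as for every gene tested in that comparison.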
